A study of Mus musculus with 6 samples.

Results

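The genes described here are the Wnt ligands, their receptors and co-receptors, the R-spondin receptors and the secreted Wnt antagonists, as measured in the stem cell side population of the mouse anterior pituitary. Members were taken by name: every gene on the array called Wnt, Fzd, Sfrp or Dkk followed by its number, and Lrp5, Lrp6, Ror1, Ror2, Lgr4, Lgr5, Lgr6, Wif1, Axin1, Axin2, Ctnnb1, Lef1 and Tcf7. This gave 50 genes on 64 probes, of 30397 genes on the array. They are 19 ligands, 14 receptors and co-receptors, 3 R-spondin receptors, 9 secreted antagonists and 5 intracellular members, the last being Axin1, Axin2, Ctnnb1, Lef1 and Tcf7, which are neither ligands, receptors nor secreted. The rule uses names and no measured value, though it was set with earlier results of these data known.

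The study asked how the stem cell fraction of the pituitary differs once growth hormone cells have been injured. All mice were female and carried iDTR, an inducible receptor for diphtheria toxin. GHCre mice carried in addition a Cre recombinase driven by growth hormone regulatory sequence, so that toxin kills growth hormone cells, and control mice had iDTR without Cre. Mice of both genotypes received the toxin, 4 ng for each g of body weight, 2 times daily over 3 or 10 days. The sorted cells were those that pump out Hoechst dye (the side population) and do not carry a high level of Sca1 on their surface. The 6 arrays comprised 2 of GHCre mice and 2 of control mice after 3 days, and 1 of GHCre mice and 1 of control mice after 10 days. Cre was thus driven by growth hormone sequence, not by a marker of the sorted fraction. Whether sorted cells carried Cre activity was not tested, and the labels do not say how many animals gave each sort. The p-values below therefore measure only the spread between these samples, which may be technical.

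Wnt proteins are secreted ligands that bind Frizzled (Fzd) receptors. With the co-receptors Lrp5 and Lrp6 they release beta-catenin, the product of Ctnnb1, from a destruction complex built on Axin, and beta-catenin then acts in the nucleus with Lef1 and Tcf7; with Ror1 or Ror2 they signal without it. Secreted frizzled-related proteins (Sfrp) and Wif1 bind Wnts outside the cell, Dickkopf (Dkk) proteins occupy Lrp5 and Lrp6, and R-spondins acting through Lgr receptors keep Frizzled at the cell surface. Wnt signalling shapes growth and cell fate in the developing pituitary.

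Each gene was read by probes of 60 bases, whose sequences and mm9 positions are in the deposited scanner files. Those shown belong to the members with the lowest p-values after 3 days and to the members whose 2 probes gave opposite results, so that the measured stretch of each transcript can be seen. Probes toward the 3′ end of a transcript are given by their first 30 bases, the others whole, all 5′ to 3′ and in lower case because no base within them is singled out.
Sfrp1, chr8:24559438-24559497, plus strand, first 30 bases: ttaaaatagtcattccggagagtcagggaa
Sfrp4, chr13:19724488-19724547, plus strand, first 30 bases: cacagttgtctgtgtgcatactgtgtaaga
Ror2, chr13:53204795-53204854, minus strand, first 30 bases: tgtttcctgggtttagaatgttcaaaagga
Lgr6, chr1:136883782-136883841, minus strand: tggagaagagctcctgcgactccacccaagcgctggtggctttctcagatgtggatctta
Fzd2, brightest probe, chr11:102467613-102467672, plus strand: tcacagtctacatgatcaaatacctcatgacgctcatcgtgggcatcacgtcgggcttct
Fzd2, other probe, chr11:102469045-102469104, plus strand, first 30 bases: cgtgacattctatatcataagatattgata
Ror1, brightest probe, chr4:100116284-100116343, plus strand, first 30 bases: gctatagagatgtataagatgcacaataaa
Ror1, other probe, chr4:100114117-100114176, plus strand: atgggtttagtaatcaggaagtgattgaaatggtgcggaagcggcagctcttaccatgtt
Wnt4, brightest probe, chr4:136851690-136852258, plus strand: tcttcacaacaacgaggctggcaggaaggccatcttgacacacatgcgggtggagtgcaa
Wnt4, other probe, chr4:136855342-136855401, plus strand, first 30 bases: tatgaggctccttggcattgtgacatcccc
The brightest Wnt4 probe covers 569 bases of the genome because it crosses an exon junction, with 509 bases of intron between its ends. Counted along the transcript, the probes of Fzd2 start 1432 bases apart and those of Wnt4 3143 bases apart. The GC share of the 10 probes ran from 35.0% to 55.0%, with 50% for the brightest Fzd2 probe and 35.0% for the other.

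Levels are given on the log2 scale, each array's 75th percentile of signal set to 0. They compare arrays for 1 probe, never a probe with another probe. A probe was called above background where the scanner software marked it as well above background. The 75th percentile ran from 186.15 to 298.51 between arrays, the share of probes above background from 53.8% to 65.7%, and no probe was saturated. The lowest value of both belongs to replicate 1 of the 3 day controls. For Gh, which the injured cell type transcribes, the level was 5.46 and 2.20 in GHCre mice, against 5.69 and 3.65 in controls at 3 days, where the groups overlap. At 10 days the values were 2.21 in the GHCre array, against 7.86 in the control array. Sox2, a defining marker of pituitary stem cells, was not above background on any array. At 3 days the difference was 0.49 ± 0.85 for Ly6a, the gene of Sca1, and 0.14 ± 0.60 for the dye pump Abcg2, with overlapping groups for both.

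Most members were measurable in the side population. Of the 50 genes, 28 (56%) were above background on all 6 arrays, against 48.7% of all genes on the array. A further 15 were above background on 1 to 5 arrays and 7 (14.0%) on none, against 22.9% of all genes with none. The 7 were the ligands Wnt2, Wnt3, Wnt3a, Wnt6 and Wnt8a, the R-spondin receptor Lgr5 and the antagonist Wif1. By role, 10 of 14 receptors, 8 of 19 ligands, 4 of 9 antagonists, 2 of 3 R-spondin receptors and 4 of 5 intracellular members were above background on all 6 arrays. Between arrays the number of members above background was 40 and 36 in GHCre mice against 31 and 35 in controls after 3 days, and 39 in GHCre against 38 in control mice after 10 days. The array with 31 is the one with the lowest share of probes above background.

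A pair of receptors appeared on 1 array each. Fzd9 was above background in replicate 1 of the 3 day GHCre group alone, with levels of -1.63 and -4.39 in GHCre mice, against -5.54 and -6.21 in controls. Fzd10 was above background in the 10 day GHCre array alone, at -2.93 in the GHCre array, against -6.26 in the control array, at least 2.02-fold higher there. Such a bound sets the array without signal to its lowest signal above background, and it has no replicate behind it. All bounds given here hold for this scaling only, and another background correction can give a smaller difference. With the 7 genes above, these 2 were not tested, which left 41 members with signal on at least 2 arrays.

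**Figure D1:**
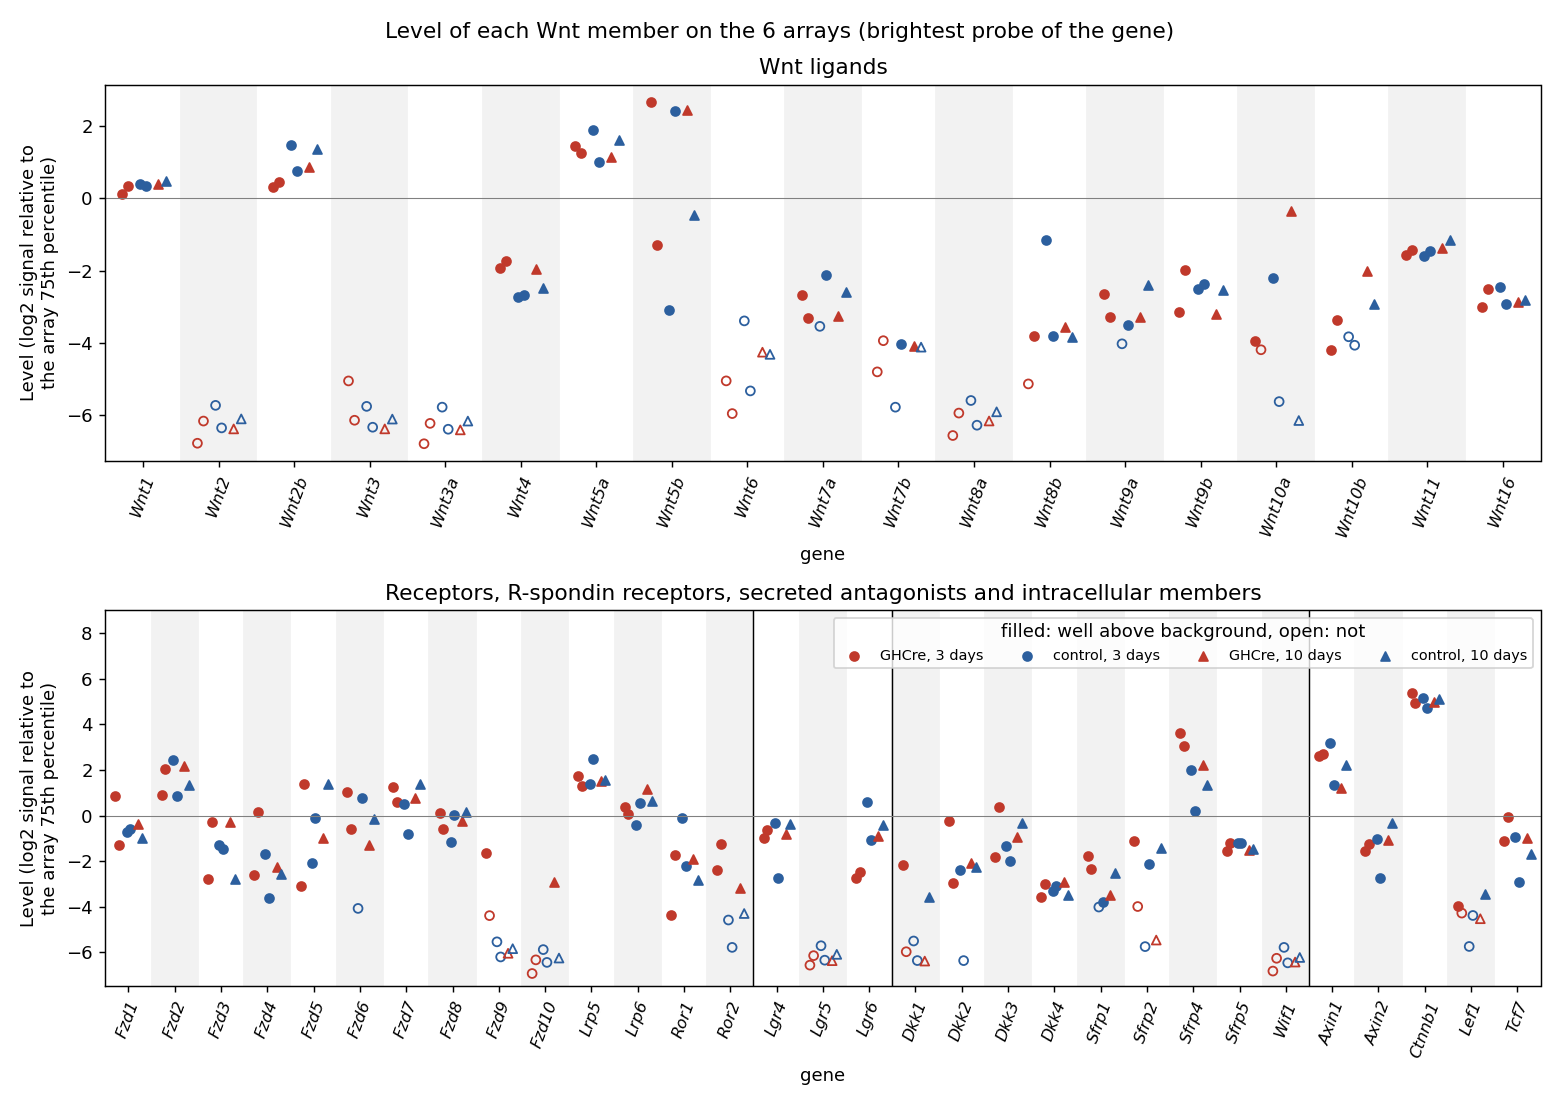
Level of each of the 50 members on the 6 arrays, in log2 units from each array's 75th percentile, with GHCre arrays in red and control arrays in blue, circles for 3 days and triangles for 10 days, and open symbols where the probe was not well above background. Ctnnb1 and Wnt11 lie within a narrow band, Wnt5b and Fzd5 are scattered within each group, and the 7 genes with no signal have open symbols throughout.

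The members differed widely in how well replicates matched, as the plot of levels on the 6 arrays shows. The pooled SD between 3 day replicates had a median of 0.83 over the 41 members, against 0.59 over all 21069 genes tested. It was lowest for the ligand Wnt11 (0.093), Wnt4 (0.10) and Wnt1 (0.11), and highest for the ligand Wnt5b (3.4), the receptors Fzd6 (2.55) and Fzd5 (2.45) and the antagonists Dkk2 (2.42) and Sfrp2 (2.31). For 14 of the 41 members the replicates of 1 genotype lay more than 2 apart on the log2 scale, as they did for 23.5% of all genes tested. These 14 include 6 of 12 receptors and 4 of 8 antagonists, so a difference of the same size between genotypes is within replicate error for them.

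After 3 days of toxin, the secreted antagonists Sfrp1 and Sfrp4 and the receptor Ror2 were higher in GHCre side population cells and the R-spondin receptor Lgr6 was lower, by log2 differences of 1.85, 2.23, 3.36 and -2.38. None of the 41 members passed the threshold, an adjusted p of 0.05 by limma over all genes tested, and neither did any other gene (0 of 21069). An unadjusted p under 0.05 was found for these 4 members, 3 higher (7.32%) and 1 lower (2.44%), against 3.95% of all genes tested higher and 2.65% lower, in all 1390 genes or 6.60%. The GHCre arrays lay all above the control arrays for 7 members (17.1%) and all below for 4 (9.76%), where 16.6% and 21.3% of all genes did. Past 2-fold higher were 11 members (26.8%) and past 2-fold lower 3 (7.32%), against 14.5% and 11.6% of all genes. The median difference of the members was 0.33, with 26 above 0 and 15 below, against -0.04 over all genes, of which 48.0% were above 0. In bulk RNA, fewer cells of a type and less RNA per cell cannot be told apart.

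The median of the members had opposite signs on the 2 slides where both genotypes have a 3 day array. Within slide 1 the median over the members was -0.21, with 20 of 41 above 0, and within slide 3 it was 0.39, with 29 of 41 above 0. On both slides 16 of the 41 members (39.0%) had the same direction, 12 higher and 4 lower, against 58.2% of all genes tested. Replicate numbers and slides coincide for these 4 arrays.

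**Figure D2:**
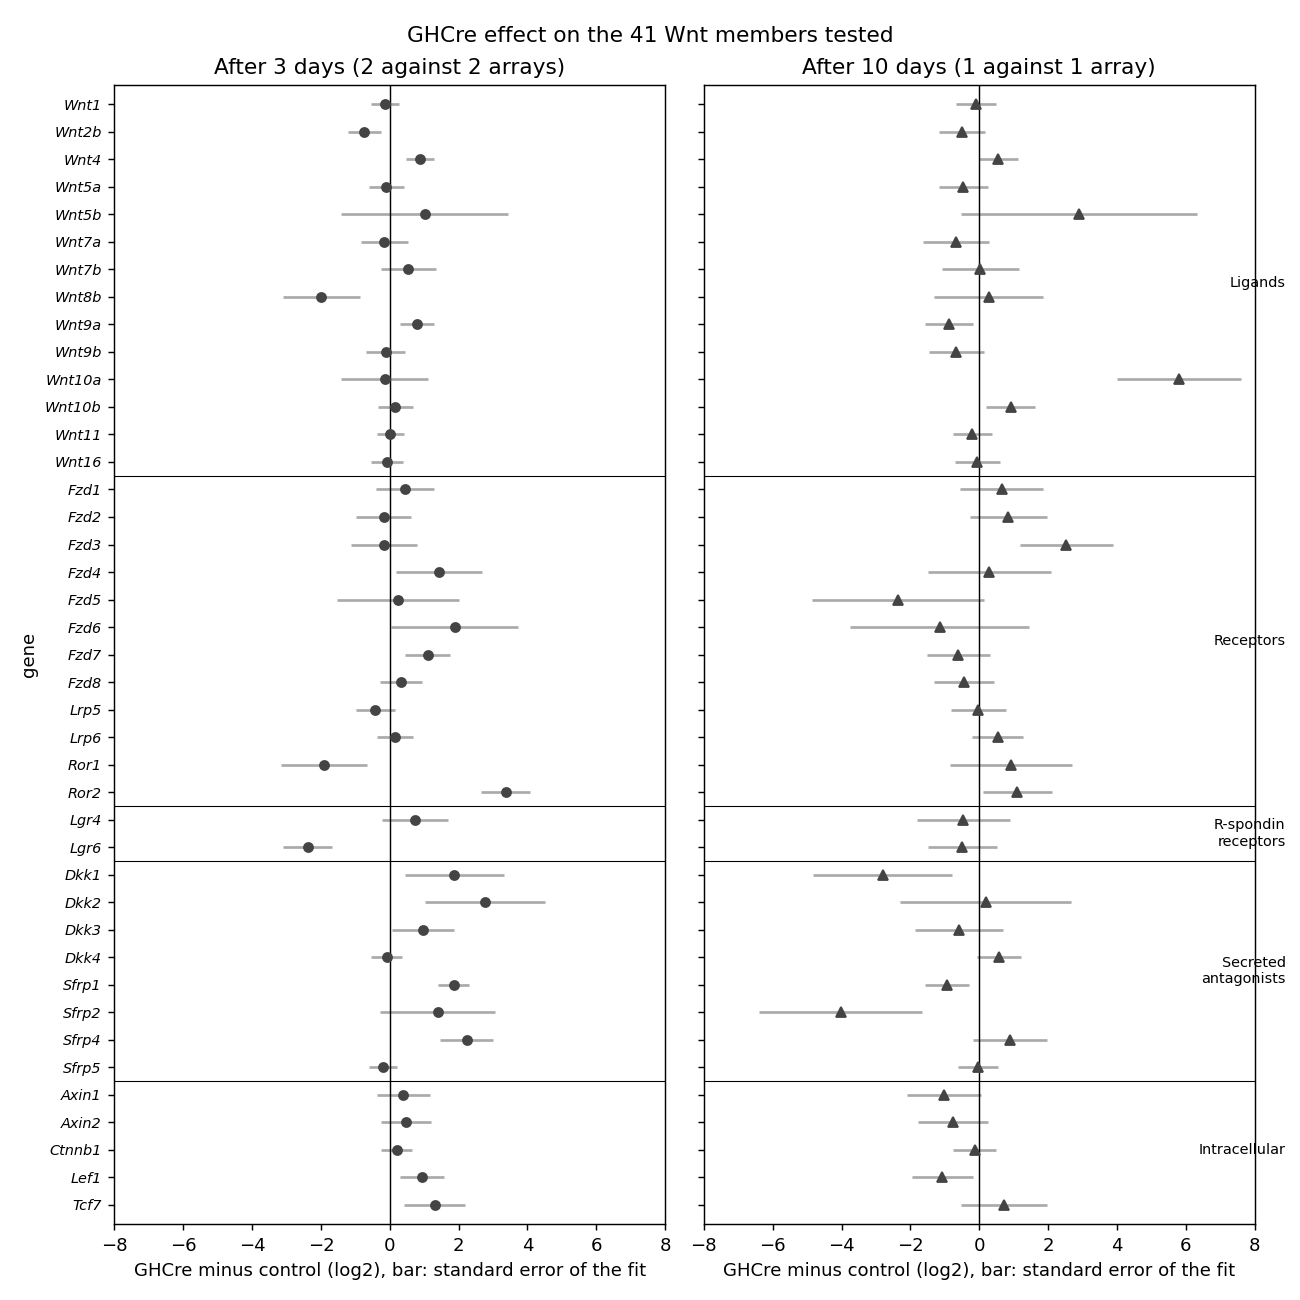
Difference of GHCre minus control for the 41 members tested, on the log2 scale, after 3 days (left) and after 10 days (right), with the standard error of the limma fit as a bar and members grouped by role. After 3 days Ror2, Sfrp4 and Sfrp1 lie to the right of 0 and Lgr6 to the left by more than their standard errors; after 10 days Wnt10a lies farthest to the right, at 5.80, and Sfrp2 farthest to the left, at -4.02.

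Of the roles, the secreted antagonists had the highest median after 3 days, 1.62 over 8 genes with 6 above 0, and the plot of differences by role shows their scatter. Their median was 1.88 within slide 1 and 0.92 within slide 3, and 5 of 8 had the same direction on both slides. Sfrp1, a Wnt-binding inhibitor, had levels of -1.76 and -2.33 in GHCre mice, against -4.02 and -3.78 in controls, the first control not above background. Its GHCre arrays lay above both controls, with means of -2.05 ± 0.41 in GHCre mice, against -3.90 ± 0.17 in controls (SD, n = 2 each). The difference was 1.85 ± 0.45 (unadjusted p = 0.0146, adjusted p = 0.686 with limma), or 2.26 on slide 1 and 1.45 on slide 3. With normexp background correction, which adds an offset of 50 to every signal, it was 0.48.

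Sfrp4, a further Wnt-binding inhibitor, had levels of 3.62 and 3.06 in GHCre mice, against 1.99 and 0.22 in controls. Both GHCre arrays were above both controls, and the controls were 1.78 apart. The difference was 2.23 ± 0.76 (unadjusted p = 0.0429, adjusted p = 0.751 with limma), or 1.62 on slide 1 and 2.84 on slide 3, and it ran from 1.35 to 3.12 as each 3 day array was left out in turn. Sfrp5, of the same family, was steady. Its levels were -1.57 and -1.22 in GHCre mice, against -1.20 and -1.19 in controls, which do not overlap but differ by only -0.20 ± 0.41.

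The Dickkopf genes were either flat or scattered. Dkk4 had -3.59 and -3.02 in GHCre mice, against -3.33 and -3.11 in controls, with overlapping groups and a difference of -0.09 ± 0.45. Dkk3, a divergent member of the family, had -1.82 and 0.37 in GHCre mice, against -1.36 and -2.01 in controls. The lower GHCre array lay between the controls and the other above both. Dkk1, the best known antagonist of Lrp6, had -2.16 and -5.98 in GHCre mice, against -5.51 and -6.37 in controls, and of these arrays the first GHCre one alone was above background. Dkk2 had -0.23 and -2.97 in GHCre mice, against -2.37 and -6.37 in controls, a difference of 2.77 ± 1.75 with controls 4.00 apart. Sfrp2 had -1.11 and -3.99 in GHCre mice, against -5.75 and -2.14 in controls, above background on 1 array of each genotype. For both Dkk2 and Sfrp2 the groups overlapped.

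Ror2, a receptor tyrosine kinase that carries Wnt5a signals without beta-catenin, had the lowest p-value of the members. It stood at -2.39 and -1.26 in GHCre mice, against -4.59 and -5.79 in controls, with neither control above background. Ror2 was above background on 3 arrays, all of GHCre mice, so it entered the test only through the genotype where it is high. Its p-value rests on control values at background. It was at least 4.14-fold higher in GHCre mice, the measured difference being 3.36 ± 0.70 (unadjusted p = 0.00858, adjusted p = 0.686 with limma), or 2.20 on slide 1 and 4.53 on slide 3. With normexp the difference was 0.77 on the log2 scale, which is smaller than that bound. Wnt5a, its ligand, had 1.47 and 1.26 in GHCre mice, against 1.91 and 1.02 in controls, with overlapping groups and a difference of -0.10 ± 0.51.

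On the brightest probe of each Frizzled receptor tested, Fzd7 alone had groups that did not overlap, at 1.26 and 0.60 in GHCre mice, against 0.49 and -0.82 in controls. Its difference was 1.10 ± 0.65 (adjusted p = 0.859 with limma), and it ran from 0.44 to 1.75 as each 3 day array was left out. Its other probe gave 0.66. Over the 12 receptors and co-receptors tested the median was 0.28, with 8 above 0. In 2 of these 12, Ror2 and Fzd7, the direction was the same on both slides.

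The other receptors overlapped between genotypes. Fzd1 had 0.85 and -1.28 in GHCre mice, against -0.70 and -0.61 in controls. Fzd3 had -2.78 and -0.30 in GHCre mice, against -1.31 and -1.46 in controls. For both the GHCre replicates were over 2 apart and the controls lay between them. Fzd8 had 0.09 and -0.59 in GHCre mice, against -1.15 and 0.00 in controls. Fzd4, a receptor of blood vessel growth, had -2.60 and 0.15 in GHCre mice, against -1.67 and -3.64 in controls. Fzd5 had -3.11 and 1.40 in GHCre mice, against -2.07 and -0.13 in controls. The lowest array was control replicate 2 for Fzd4 and GHCre replicate 1 for Fzd5, with gaps of 1.94 or more within each genotype. Fzd6 had 1.03 and -0.57 in GHCre mice, against -4.08 and 0.76 in controls, the first control not above background. Its value of 5.10 on slide 1 and -1.34 on slide 3 shows how far the slides could differ.

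The co-receptors of the beta-catenin branch were steadier. Lrp5 had 1.73 and 1.31 in GHCre mice, against 1.40 and 2.48 in controls, a difference of -0.42 ± 0.57. Lrp6 had 0.36 and 0.07 in GHCre mice, against -0.41 and 0.54 in controls, a difference of 0.15 ± 0.53. In both the groups overlapped, and the difference was less than the gap between the controls.

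Lgr6, a receptor for R-spondins, had the lowest difference of the members tested after 3 days. Its levels were -2.75 and -2.49 in GHCre mice, against 0.59 and -1.05 in controls, with both GHCre arrays under both controls. The difference was -2.38 ± 0.71 (unadjusted p = 0.0276, adjusted p = 0.731 with limma), or -3.33 on slide 1 and -1.44 on slide 3. It ran from -3.21 to -1.56 as each array was left out, and its second probe was not above background on any array. Lgr4, which binds the same ligands, had -1.0 and -0.63 in GHCre mice, against -0.33 and -2.76 in controls, with overlapping groups. Lgr5 was not above background.

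The ligands as a group were centred near 0, with a median of -0.09 over 14 genes and 6 above 0. Wnt1 had 0.13 and 0.33 in GHCre mice, against 0.39 and 0.36 in controls, a difference of -0.14 ± 0.40. Wnt11 had -1.57 and -1.44 in GHCre mice, against -1.59 and -1.46 in controls, a difference of 0.02 ± 0.40. Wnt16 had -3.02 and -2.51 in GHCre mice, against -2.46 and -2.93 in controls, a difference of -0.08 ± 0.46. These 3 were among the steadiest probes, and the Wnt1 groups failed to overlap by only 0.02.

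Besides Wnt1, ligands with groups apart were Wnt4 and Wnt9a, higher in GHCre mice, and Wnt2b, lower. Wnt4, a ligand expressed in the developing pituitary, stood at -1.92 and -1.73 in GHCre mice, against -2.74 and -2.68 in controls, and the difference of 0.89 ± 0.40 (unadjusted p = 0.0911, adjusted p = 0.808 with limma) was nearly equal on both slides, 0.82 on slide 1 and 0.95 on slide 3. With normexp it was 0.10. Wnt9a had -2.66 and -3.29 in GHCre mice, against -4.03 and -3.50 in controls, the first control not above background, and a difference of 0.79 ± 0.49 that was -0.09 with normexp. Both GHCre arrays lay above the controls for these 2 genes. Wnt2b had 0.32 and 0.45 in GHCre mice, against 1.49 and 0.76 in controls, a difference of -0.74 ± 0.47 (adjusted p = 0.861 with limma), or -1.17 on slide 1 and -0.31 on slide 3. It ran from -1.11 to -0.37 as each array was left out.

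The remaining ligands overlapped. Wnt5b was the most erratic, at 2.68 and -1.30 in GHCre mice, against -3.09 and 2.44 in controls. Slide 1 therefore gave 5.76 and slide 3 gave -3.73. Wnt9b had -3.14 and -2.00 in GHCre mice, against -2.52 and -2.38 in controls. Wnt10a had -3.95 and -4.20 in GHCre mice, against -2.21 and -5.63 in controls, above background on 1 array of each genotype. Wnt10b had -4.21 and -3.37 in GHCre mice, against -3.84 and -4.07 in controls, above background on both GHCre arrays and neither control, which gives at least 1.03-fold. Wnt8b had -5.14 and -3.81 in GHCre mice, against -1.15 and -3.82 in controls, where the first control was highest and the first GHCre array not above background. Wnt7a and Wnt7b differed by -0.16 ± 0.68 and 0.54 ± 0.79, and Wnt7b was above background on 1 of these 4 arrays.

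Of the intracellular members all 5 were above 0 after 3 days, with a median of 0.47, but 2 of the 5, Ctnnb1 and Lef1, were higher on both slides. Ctnnb1, which encodes beta-catenin, had 5.36 and 4.95 in GHCre mice, against 5.17 and 4.74 in controls, a difference of 0.20 ± 0.45 within the replicate spread. Axin1, the scaffold of the destruction complex, had 2.61 and 2.69 in GHCre mice, against 3.19 and 1.32 in controls. Axin2, a scaffold that is itself a common target of beta-catenin, had -1.57 and -1.27 in GHCre mice, against -1.03 and -2.74 in controls. For both Axin genes 1 control lay above the GHCre arrays and 1 below. Tcf7, a nuclear partner of beta-catenin, had -1.14 and -0.07 in GHCre mice, against -0.93 and -2.90 in controls and overlapped. Lef1, a further partner, had -3.98 and -4.28 in GHCre mice, against -5.75 and -4.39 in controls, of which the first GHCre array alone was above background. Its difference of 0.94 ± 0.63 was -0.18 with normexp.

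Where a gene had 2 probes, they did not always give the same answer, as the plot of paired probes shows. Of the 14 genes with 2 probes, 11 had both above background on at least 2 arrays. In 7 of these 11 both probes had the same direction after 3 days, and in 5 they differed by more than 1. The brightest Fzd2 probe had 0.92 and 2.03 in GHCre mice, against 2.45 and 0.86 in controls, a difference of -0.18. The other Fzd2 probe, printed above, had 1.89 and 0.50 in GHCre mice, against -0.34 and -1.46 in controls, with no overlap and a difference of 2.09 ± 0.76 (unadjusted p = 0.0498, adjusted p = 0.747 with limma over all probes). Both carry the same transcript accession. After 10 days the probes of Fzd2 gave 0.84 and 1.04.

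For Ror1, a receptor related to Ror2, the probes ran in opposite directions. The brightest had -4.38 and -1.75 in GHCre mice, against -0.11 and -2.22 in controls, a difference of -1.90. The other had -1.81 and -1.63 in GHCre mice, against -4.33 and -1.82 in controls, a difference of 1.36. The first GHCre array was lowest on the brightest probe and the first control lowest on the other. The second Wnt4 probe had -4.12 and -2.42 in GHCre mice, against -1.56 and -3.83 in controls, a difference of -0.57 against 0.89 for the exon-junction probe. Lrp6 gave 0.15 on its brightest probe and 1.93 on the other. For Wnt1, Fzd5, Axin2 and Wnt16 the 2 probes lay within 0.24 of each other, though those of Wnt16 had opposite signs, at -0.08 and 0.05. Which of 2 discordant probes follows the gene was not tested.

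**Figure D3:**
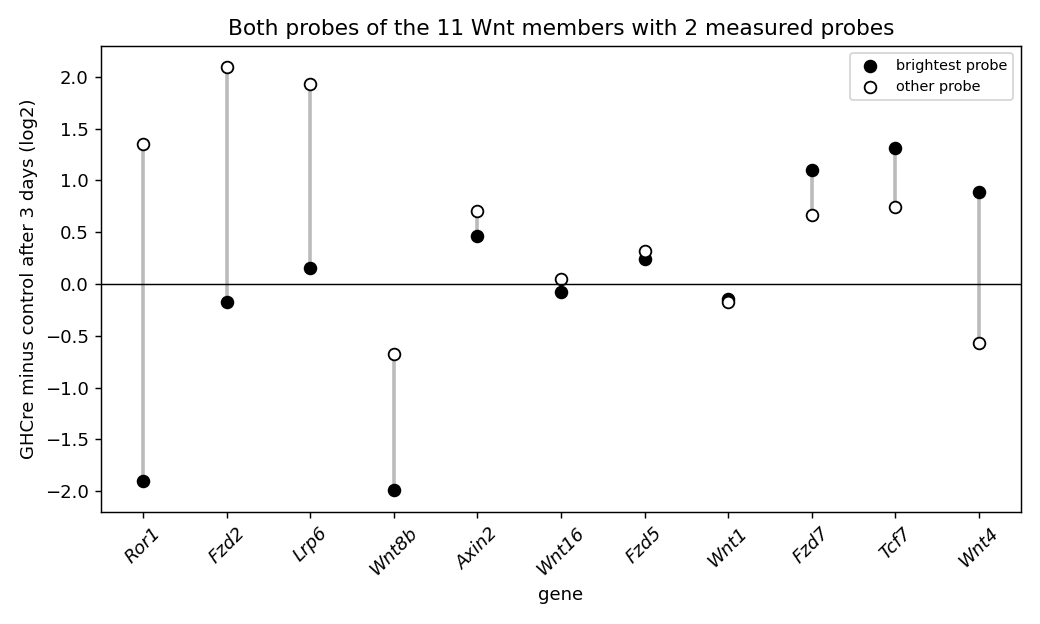
Difference of GHCre minus control after 3 days, on the log2 scale, for both probes of the 11 members with 2 measured probes, filled for the brightest and open for the other. Ror1, Fzd2 and Wnt4 have 1 probe on each side of 0, as does Wnt16 with both probes close to 0. The probes of Wnt1, Fzd5 and Axin2 nearly coincide.

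After 10 days, with 1 array for each genotype, no difference has a replicate check, and standard errors take their spread from the 3 day arrays. No other array shares a slide with the 10 day control, so the genotype difference cannot be told apart from the slide. With limma 0 genes passed, while the unadjusted p was under 0.05 in 638 (3.03%), of all genes 1.34% higher and 1.69% lower. Among members 1 was so placed, the ligand Wnt10a. Past 2-fold higher were 4 members (9.76%) and past 2-fold lower 6 (14.6%), against 12.7% and 14.1% of all genes. The median of the members was -0.10, with 17 above 0 and 24 below, and 49.9% of all genes were above 0. Hormone cell markers differed most between these 2 arrays: 5 of 6 tested were past 2-fold lower in the GHCre array, with a median of -3.78 and -7.23 for Cga, the shared subunit of glycoprotein hormones. Fshb was not above background, and the summed signal of the list was 1812 in the GHCre and 1756 in the control array, as a multiple of the 75th percentile. Most of that sum came from Prl, the prolactin gene. It stood at 10.82 in the GHCre array, against 10.49 in the control array, and was the 1 tested marker not lower. The part of such cells in the 10 day values was not tested.

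Wnt10a stood at -0.36 in the GHCre array, against -6.16 in the control array, the control not above background, so it was at least 12-fold higher in the GHCre array. The measured difference was 5.80 ± 1.80 (unadjusted p = 0.032, adjusted p = 1.00 with limma), and with normexp it was 2.03 on the log2 scale, smaller than that bound. The 3 day controls were 3.43 apart for this probe, on both sides of the 3 day GHCre arrays.

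Other members past 2-fold higher in the 10 day GHCre array were Wnt5b, Fzd3 and Ror2. Wnt5b stood at 2.45 in the GHCre array, against -0.45 in the control array. Fzd3 stood at -0.27 in the GHCre array, against -2.80 in the control array. Ror2 stood at -3.20 in the GHCre array, against -4.30 in the control array, at least 1.67-fold higher, since its control was again not above background. Wnt5b and Fzd3 were also among the members with replicates over 2 apart after 3 days.

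Past 2-fold lower in the 10 day GHCre array were Sfrp2, Dkk1, Fzd5, Fzd6, Lef1 and Axin1. Sfrp2 stood at -5.47 in the GHCre array, against -1.44 in the control array, at least 7.08-fold lower because the GHCre array was not above background. Dkk1 stood at -6.39 in the GHCre array, against -3.58 in the control array, at least 1.61-fold lower on the same ground. Lef1 stood at -4.53 in the GHCre array, against -3.45 in the control array, at least 1.76-fold lower. These 3 were above background in the control and not in the GHCre array. Fzd5 stood at -0.98 in the GHCre array, against 1.38 in the control array, though its other probe gave 0.32. Fzd6 stood at -1.28 in the GHCre array, against -0.13 in the control array. Axin1 stood at 1.19 in the GHCre array, against 2.21 in the control array. Of the 6, Axin1 was the one measured on all 6 arrays whose 3 day replicates lay within 2 of each other.

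On their brightest probe the other 31 members lay within 2-fold, from -0.94 for Sfrp1 to 0.92 for Ror1. Sfrp1 stood at -3.47 in the GHCre array, against -2.53 in the control array. Sfrp4 stood at 2.22 in the GHCre array, against 1.32 in the control array. Sfrp5 stood at -1.50 in the GHCre array, against -1.47 in the control array. Of these 3 antagonists Sfrp1 alone had its GHCre array lower by more than 0.5. Dkk3 stood at -0.94 in the GHCre array, against -0.35 in the control array. Dkk4 stood at -2.94 in the GHCre array, against -3.50 in the control array. The Dickkopf genes thus differed from each other in direction.

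Among the ligands within 2-fold, Wnt1 stood at 0.40 in the GHCre array, against 0.50 in the control array. Wnt11 stood at -1.37 in the GHCre array, against -1.16 in the control array. Wnt16 stood at -2.87 in the GHCre array, against -2.81 in the control array. These 3, steady after 3 days, again lay within 0.21 of each other between genotypes. Wnt2b stood at 0.87 in the GHCre array, against 1.37 in the control array. Wnt4 stood at -1.94 in the GHCre array, against -2.49 in the control array. Wnt2b was lower and Wnt4, on its brightest probe, higher in the GHCre array, the directions of 3 days. The other Wnt4 probe, above background on all 6 arrays, gave -0.87, opposite to the brightest probe as after 3 days. Wnt5a stood at 1.16 in the GHCre array, against 1.62 in the control array. Wnt9a stood at -3.28 in the GHCre array, against -2.40 in the control array. Wnt9b stood at -3.21 in the GHCre array, against -2.55 in the control array. All of Wnt5a, Wnt9a and Wnt9b were lower in the GHCre array.

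Of the receptors, Fzd1 stood at -0.35 in the GHCre array, against -1.0 in the control array. Fzd2 stood at 2.18 in the GHCre array, against 1.34 in the control array. Fzd4 stood at -2.27 in the GHCre array, against -2.56 in the control array. These 3 were higher in the GHCre array. Fzd7 stood at 0.76 in the GHCre array, against 1.37 in the control array. Fzd8 stood at -0.26 in the GHCre array, against 0.17 in the control array. Both were lower there. Ror1 stood at -1.93 in the GHCre array, against -2.84 in the control array on its brightest probe, and the other probe gave -0.61. Lrp5 stood at 1.53 in the GHCre array, against 1.57 in the control array. Lrp6 stood at 1.16 in the GHCre array, against 0.63 in the control array, and its other probe gave -2.41. The probes of Ror1 and Lrp6 thus ran in opposite directions after 10 days, as those of Ror1 did after 3 days.

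The R-spondin receptors were both slightly lower in the 10 day GHCre array. Lgr4 stood at -0.82 in the GHCre array, against -0.36 in the control array. Lgr6 stood at -0.89 in the GHCre array, against -0.40 in the control array. Inside the cell, the scaffold Axin2 and beta-catenin were lower and Tcf7 higher. Ctnnb1 stood at 4.97 in the GHCre array, against 5.10 in the control array. Axin2 stood at -1.09 in the GHCre array, against -0.33 in the control array. Tcf7 stood at -0.99 in the GHCre array, against -1.69 in the control array on its brightest probe. Its other probe, above background on all 6 arrays, gave 2.42, which is past 2-fold.

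The GHCre effect after 10 days was then set against that after 3 days in 1 test of the difference. This test uses the 10 day control, so it too cannot be told apart from the slide. With limma 0 of 21069 genes passed and the unadjusted p was under 0.05 in 835 (3.96%), 1.49% of all genes with a higher effect after 10 days and 2.48% with a lower one. Among members 1 was so placed, Sfrp1, with a lower effect after 10 days. Its effect was -0.94 after 10 days, against 1.85 after 3 days, a difference of -2.80 ± 0.78 (unadjusted p = 0.023, adjusted p = 1.00 with limma). With normexp this difference was -0.84, and its direction was the same under all 12 alternatives, most of which could not turn it. Leaving out a 3 day array could not, as the 3 day groups do not overlap and the 10 day value stays fixed. Settings of the filter and the variance prior kept the value as it was.

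Over the 41 members the effect after 10 days was lower than after 3 days in 25 and higher in 16, with a median of -0.51 against 0.03 over all genes, of which 51.4% were higher. Past 2-fold were 7 members with a higher and 16 with a lower effect, against 17.2% and 20.6% of all genes. For the 8 antagonists the median was -2.06, with 6 lower, all 6 past 2-fold. The values behind it were -5.41 ± 2.91 for Sfrp2, -4.68 ± 2.49 for Dkk1, -2.80 for Sfrp1, -2.58 for Dkk2, -1.54 for Dkk3 and -1.34 for Sfrp4. All 11 fibroblast and mural markers, which include the collagens and platelet-derived growth factor receptors, also had a lower effect after 10 days than after 3 days, with a median of -1.09; their part in the antagonists' values was not tested. All 5 intracellular members had a lower effect after 10 days, with a median of -1.23. In each of these groups the genes with a lower effect were those above 0 after 3 days. The test subtracts those 3 day values, so the lower effects are not independent of them. A member higher without overlap after 3 days and lower after 10 days was found 4 times (Sfrp1, Fzd7, Wnt9a and Lef1), a pattern shown by 8.18% of all genes.

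Within genotypes, 10 against 3 days gave 0 genes past the threshold with limma and 848 (4.02%) at an unadjusted p under 0.05 in GHCre mice, 2.16% higher and 1.87% lower. The 1 member among them was the ligand Wnt10b, at -2.02 in the 10 day GHCre array against -4.21 and -3.37 in the 3 day GHCre arrays, a difference of 1.77 ± 0.61 (unadjusted p = 0.044, adjusted p = 1.00 with limma). In control mice the unadjusted p was under 0.05 in 854 genes (4.05%), of all genes 2.83% higher and 1.22% lower, and in 0 members. Wnt10b was higher after 10 days in control mice too, at -2.93 against -3.84 and -4.07 after 3 days, a difference of 1.02 ± 0.61. The members' median was -0.12 in GHCre mice, with 16 of 41 higher after 10 days against 57.3% of all genes, and 6 past 2-fold higher and 8 lower against 14.0% and 11.3%. In control mice it was 0.22, with 27 of 41 higher against 55.2% of all genes, and 13 past 2-fold higher and 4 lower against 16.8% and 9.15%. These comparisons share arrays with those between genotypes.

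**Figure D4:**
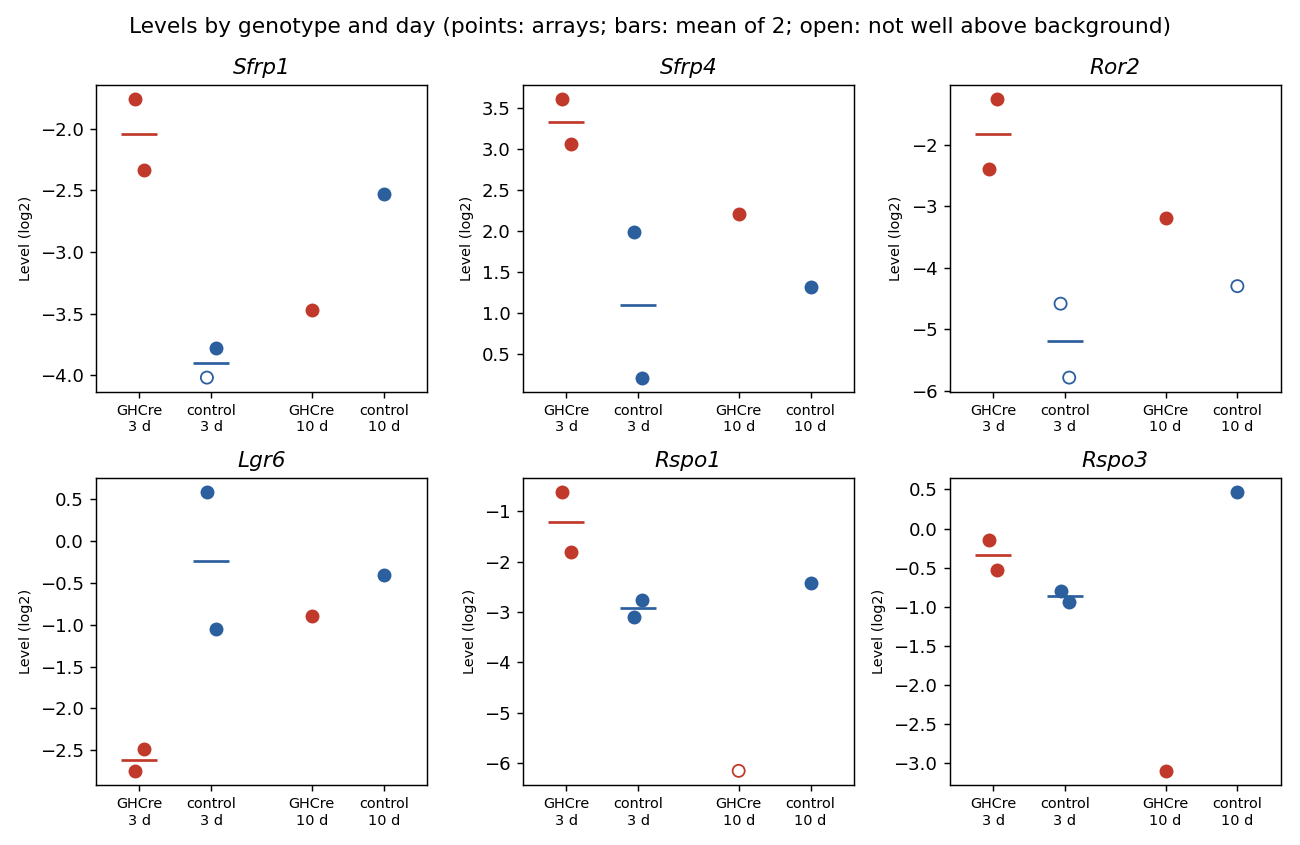
Level of Sfrp1, Sfrp4, Ror2, Lgr6, Rspo1 and Rspo3 by genotype and day, in log2 units from each array's 75th percentile, with 1 point for each array, a bar at the mean of 2 replicates and open points where the probe was not well above background. After 3 days the GHCre arrays lie above the controls for all but Lgr6, and after 10 days the GHCre array lies below the control for Sfrp1, Lgr6, Rspo1 and Rspo3.

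The other genes of the pathway, a list of 69 with 54 tested, had a median near 0. It was 0.10 after 3 days, with 32 above 0 and 22 below, and none passed the threshold with limma. An unadjusted p under 0.05 was found for 2 higher (Rspo1 and Csnk1e, 3.70%) and 1 lower (Ctnnbip1, 1.85%), against 3.95% and 2.65% of all genes. After 10 days the median was -0.06, with 1 higher (Znrf3) and 2 lower (Rspo1 and Rspo3) at an unadjusted p under 0.05, which is 1.85% and 3.70% against 1.34% and 1.69% of all genes.

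The R-spondins, ligands of the Lgr receptors, are shown beside the members in the plot of 6 genes by genotype and day. Rspo1 had -0.61 and -1.82 in GHCre mice, against -3.10 and -2.76 in controls after 3 days, a difference of 1.71 ± 0.59 (unadjusted p = 0.0438, adjusted p = 0.753 with limma), or 0.60 with normexp. Its 10 day values were -6.16 in the GHCre array, against -2.43 in the control array, the GHCre array not above background, a measured difference of -3.73 ± 0.84 and at least 3.57-fold lower. Rspo3 had -0.15 and -0.52 in GHCre mice, against -0.79 and -0.94 in controls after 3 days. Its 10 day values were -3.10 in the GHCre array, against 0.47 in the control array, a difference of -3.56 ± 0.59 (unadjusted p = 0.00377, adjusted p = 1.00 with limma). Both were higher in the GHCre arrays after 3 days without overlap, and the values of 10 days rest on 1 array for each genotype. Rspo2 and Rspo4 were not above background on any array.

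Of the machinery for Wnt release, Porcn, which lipidates Wnts, differed by 1.59 ± 0.77 and Wls, which carries them to the surface, by 0.85 ± 0.44 after 3 days, without overlap for either. In the destruction complex and transducers, the kinase Csnk1e had 2.68 and 2.44 in GHCre mice, against 1.52 and 1.26 in controls, a difference of 1.17 ± 0.41 (unadjusted p = 0.0473, adjusted p = 0.754 with limma). Nkd2, Dvl1 and Tnks differed by -0.64 ± 0.44, 0.85 ± 0.73 and -0.69 ± 0.70. Over that group of 14 tested genes the median was -0.07.

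In the nucleus, Ctnnbip1, an inhibitor of the beta-catenin and TCF complex, had -1.06 and -1.95 in GHCre mice, against 0.60 and 0.06 in controls, with both GHCre arrays under both controls and a difference of -1.84 ± 0.54 (unadjusted p = 0.0268, adjusted p = 0.730 with limma). Bcl9l and Tle1 differed by 0.94 ± 0.41 and 0.97 ± 0.58 without overlap, and Tle4 by -1.36 ± 1.27 with overlap. At the membrane, Znrf3, an E3 ligase that removes Frizzled, was at least 1.24-fold higher in GHCre mice after 3 days, with controls not above background, while Ptk7, Ryk and Kremen1 differed by 0.47 ± 0.42, -0.33 ± 0.54 and -0.05 ± 0.67. Of planar polarity genes, which orient cells in a sheet, Vangl1, Vangl2 and Daam1 differed by 1.28 ± 0.90, 1.13 ± 0.68 and 0.98 ± 0.71. Celsr1 was at least 1.13-fold lower, its GHCre arrays not above background.

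Genes that beta-catenin is known to switch on had a median of 0.38 over the 10 tested, 6 above 0 and 4 below. Tnfrsf19 had -1.72 and -1.98 in GHCre mice, against -0.30 and -0.90 in controls, a difference of -1.25 ± 0.46 (unadjusted p = 0.0517, adjusted p = 0.757 with limma). Fosl1, Id2 and Sox4 differed by 1.30 ± 0.69, 0.78 ± 0.43 and 0.79 ± 0.47, all without overlap.

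Mesenchymal cells commonly express the antagonists and Ror2. All 11 fibroblast and mural markers were above 0 after 3 days, against 48.0% of all genes, and 7 of them were higher without overlap, against 16.6% of all genes. None passed the threshold with limma. Their median was 0.76 over both slides, 0.54 within slide 1 and 0.83 within slide 3. Their summed signal, as a multiple of the 75th percentile, was 274 and 228 in GHCre mice, against 208 and 141 in controls. After 10 days it was 173 in the GHCre and 177 in the control array, with a median difference of -0.53, and 10 of the 11 were above background on all 6 arrays. The median after 3 days was 1.92 for 5 endothelial markers (Tie1 not above background), 1.36 for 6 lymphocyte markers that went both ways (from 3.50 for Ccr7 to -2.35 for Cd8a), 1.08 for 2 red cell markers and 0.72 for 6 pituitary stem cell markers. The summed endothelial signal was 6.53 and 5.27 in GHCre mice, against 4.42 and 3.93 in controls, and 4.67 in the GHCre against 4.70 in the control array after 10 days. It was -0.03 for 8 macrophage and myeloid markers and -0.56 for 6 hormone cell markers. The part of these cells in the differences of Sfrp1, Sfrp4, Ror2 and Rspo1 was not tested.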

How the data were processed

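RNA of sorted side population cells was amplified and hybridised to 1-colour Agilent arrays by the authors, per the labels' protocols. The deposited scanner files hold background-subtracted intensity per spot, made with Agilent Feature Extraction 10.7.3.1, per the file headers. A deposited series table holds log2 values of the same arrays, which followed quantile-normalised log2 intensity. The 6 arrays fall in 4 groups. Here each array was scaled to its 75th percentile and taken to log2, spots of a probe were averaged, and a gene was represented by its brightest probe. Genes were tested where well above background on at least 2 arrays. limma 3.58.1 in R 4.3.3 fitted a mean for each of the 4 groups, with Benjamini-Hochberg adjustment over 21069 genes and a threshold of 0.05, for 5 comparisons. Arrays give no counts, so their number limits the precision. The fit was tested on simulated data with 200 changed genes. Plots used matplotlib 3.10.9 (Python 3.11.15).

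Groups follow the sample titles and the genotype and treatment fields, with which some free-text descriptions did not match. Members and gene lists were chosen with earlier results of these data known. Levels on all 6 arrays are given for members above background on all arrays, for those with groups apart after 3 days, for those with an unadjusted p under 0.05 and for those with discordant probes; a few others were added after their values were seen. Of the other pathway genes, up to 4 of lowest p in each subgroup are named, besides genes with an unadjusted p under 0.05 after 10 days. Marker lists covered 7 kinds of cell. An exact permutation test of 2 against 2 arrays cannot go below a two-sided p of 0.3333. Alternatives covered normalisation, background correction, the deposited table, filters, probe choice, variance prior, blocks and leaving out each 3 day array. Those for results of 10 days and for other pathway genes were chosen after seeing the data.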

Additional observations from a re-analysis of the deposited data

How the results depend on the processing

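No gene passed the threshold with limma in any comparison under any alternative, and the members' median ran from 0.08 to 0.39 after 3 days and from -0.20 to -0.08 after 10 days. Leaving out a 3 day array cannot change a difference after 10 days, so those settings kept the 10 day median at -0.10 and do not test it. Of 34 member results after 3 days, 12 had 1 direction under every setting, Sfrp1, Sfrp4, Ror2 and Lgr6 among them. Where the 3 day groups do not overlap, as for those named, leaving out 1 array cannot turn the sign. Settings that changed only the filter or the variance prior kept each value as it was. For such members these settings do not test the direction. With normexp, which compresses dim probes by its offset, the sign turned for Lef1 (-0.18), Wnt10b (-0.25), Wnt11 (-0.047) and Wnt9a (-0.091), and the mean of both probes turned Fzd2 (0.96). Leaving out 1 array turned 20 results, which then ran from -0.54 to 1.33 for Axin1, -0.39 to 1.32 for Axin2, -0.013 to 0.41 for Ctnnb1, -0.14 to 2.05 for Dkk3, -0.37 to 0.20 for Dkk4, -0.63 to 1.5 for Fzd1, -0.97 to 0.61 for Fzd2, -1.40 to 1.08 for Fzd3, -2.01 to 2.50 for Fzd5, -0.25 to 0.90 for Fzd8, -0.48 to 1.95 for Lgr4, -0.96 to 0.12 for Lrp5, -0.32 to 0.62 for Lrp6, -1.87 to 1.56 for Wnt10a, -0.25 to 0.58 for Wnt10b, -0.047 to 0.088 for Wnt11, -0.33 to 0.18 for Wnt16, -0.54 to 0.34 for Wnt5a, -1.75 to 3.78 for Wnt5b and -0.69 to 0.46 for Wnt9b. The cause was not tested. With the replicate number as a block, limma again called 0 genes, with 1474 at an unadjusted p under 0.05 after 3 days. Same-numbered 3 day arrays share a slide, and over 21069 genes their deviations from the group means correlated with r = 0.087. That value rests on 2 pairs of arrays. The slide could not be fitted as a block where the 10 day control enters.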
